A study of Mus musculus with 20 samples.

Results

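The genes described here are the ligands and receptors of the 4 classical axon guidance systems: semaphorins with plexins and neuropilins, slits with Robo receptors, ephrins with Eph receptors, and netrins with Dcc and the Unc5 receptors. They were chosen by gene symbol alone, which gave 69 of the 24421 gene symbols counted: 35 ligands (20 semaphorins, 3 slits, 8 ephrins and 4 netrins) and 34 receptors (9 plexins, 2 neuropilins, 4 Robo receptors, 14 Eph receptors and 5 netrin receptors). RNA came from motor neurons differentiated from mouse embryonic stem cells. The NIP groups (Neurog2, Isl1 and Phox2a in this field's usage, labelled cranial) and the NIL groups (Neurog2, Isl1 and Lhx3, labelled spinal) were each taken at 0 h and then at 12 h and 36 h, with 20 µM cyclopiazonic acid (CPA) or untreated. CPA blocks the SERCA calcium pumps of the endoplasmic reticulum and causes ER stress, and the series asks how both neuron types respond to such protein misfolding stress. The neurons were at day 2 per the labels and grew in motor neuron medium with serum, B27 and growth factors whose combinations are not detailed, and each of the 10 groups has 2 libraries. The labels conflict on the later times: sample titles name 12 h and 36 h, but 6 h and 12 h stand in the treatment description and the design, and the title times are used here. Whether replicates 1 and 2 came from separate cultures is not said, so p-values reflect the spread between libraries, which may be technical.

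Guidance receptors on a growth cone read ligands in their surroundings and steer the axon towards or away from them. Class 3 semaphorins are secreted and bind neuropilins, which signal through plexin co-receptors, while the other semaphorins mostly bind plexins directly. Slits repel axons through Robo1 and Robo2. Netrins attract axons through Dcc and repel them through Unc5 receptors. Ephrins are bound to the membrane and can signal in both directions with Eph receptors. In the limb, Epha4 is known for sending spinal motor axons of the lateral column dorsally, and in the hindbrain, slits, netrins and semaphorins are known for routing cranial motor axons.

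Reads in genes ran from 7996454 to 30321152 per library, of which the 69 guidance genes held 0.309% to 0.900%. Rn45s, the ribosomal precursor, held 5.18% to 38.6%, with untreated NIP 36 h replicate 1 and CPA-treated NIL 36 h replicate 2 at the top. Lhx3, which belongs to the NIL factor set, followed the labels of the lines: it reached at most 0.326 CPM (reads scaled to library size) in any NIP library and was 115 to 166 CPM in every NIL library. Motor neuron markers were present in both lines, with Slc18a3, the vesicular acetylcholine transporter, at 89.98 to 196 CPM in NIP and 59.2 to 392 CPM in NIL libraries. Markers of other cells were present too. Pooled over both replicates, their summed levels overlapped between the lines for every list but proliferation. Within each replicate number the endoderm and endothelium sums did not overlap. In replicate 1 they were 525.5 to 1194.1 CPM in NIP and 3432.5 to 18162.9 CPM in NIL. In replicate 2 they were 3416.4 to 9465.1 CPM in NIP and 12153.4 to 37051.1 CPM in NIL. Pluripotent sums overlapped in replicate 1 but not in replicate 2. Summed proliferation markers were 85.4 to 259.7 CPM in the 10 NIP libraries and 293 to 886 CPM in the 10 NIL libraries, endoderm and endothelium markers 526 to 9465 CPM in NIP and 3432 to 37051 CPM in NIL, pluripotent stem cell markers 89.6 to 294 CPM in NIP and 149 to 790.3 CPM in NIL, mesenchyme markers 33.1 to 267 CPM in NIP and 67.1 to 448 CPM in NIL, and neural progenitor and glia markers 609 to 1385 CPM in NIP and 505 to 1063 CPM in NIL. Within these lists some genes were near 0 (Gfap, Sox10, Dcn and Lum had 2, 7, 2 and 1 reads in all 20 libraries together) and others were not: Pdgfra, of oligodendrocyte precursors and mesenchyme, was 6.98 to 87.5 CPM in NIP and 51.98 to 287 CPM in NIL, the myelin gene Mbp 6.43 to 33.3 CPM in NIP and 4.67 to 18.6 CPM in NIL, and Fn1, fibronectin, 29.7 to 262 CPM in NIP and 55.2 to 349.8 CPM in NIL. The part these cells play in the results below was not tested. In such bulk libraries, fewer cells of a type and less RNA per cell cannot be told apart.

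By CPM per kilobase of exon, receptors for semaphorins headed the guidance genes of untreated NIP neurons. Plxna4, a plexin of class 3 semaphorin signalling, averaged 74.7 CPM per kb (53.3 to 109 over the 6 untreated libraries) and Nrp1, the neuropilin that binds Sema3a, averaged 74.7 CPM per kb (61.4 to 95.9). Efna5, a GPI-anchored ephrin, followed at 48.8 CPM per kb (38.0 to 65.0), as the highest ligand. The ranges of Plxna4 and Nrp1 overlapped, as did those of Plxna4 and Efna5, so their order is not resolved beyond the spread. In untreated NIL neurons Plxna1 (43.7), Nrp1 (40.4), Dcc (40.0), the secreted Sema3d (39.6), Efna5 (38.4) and Plxna4 (37.2 CPM per kb) lay close together, with overlapping ranges. Within the other families the member with the highest level per length was Slit1 in NIP and Slit3 in NIL, Ephb6 in NIP and Epha4 in NIL, Unc5c in NIP and Dcc in NIL, and Robo1 and Ntn4 in both lines. The ranges of Slit3 (18.5 to 36.2) and Slit2 (7.75 to 20.1 CPM per kb) in NIL overlapped. Slit2 had more reads than Slit3 in NIL (65419 and 33029). Their order per length rests on exons merged over all annotated transcripts (25433 bases for Slit2 and 6067 for Slit3). The lead of Ephb6 in NIP (6.44 CPM per kb, 2.60 to 13.6) over Ephb2 (6.26) and Epha5 (6.21) was within its range. Netrins were low: Ntn4 averaged 2.85 CPM per kb in NIP and 3.21 CPM per kb in NIL, ranking 41 and 45 of the 69. Ntn5, Plxnb3 and Robo4 had 4, 2 and 16 reads over all 20 libraries and were not tested. Robo3, which keeps commissural axons from responding to slits, passed the filter on low counts with 77 reads, of which 1 was in a NIP library and 76 were in NIL libraries. It passed no comparison between the lines in the main fit. With the replicate number as a block in the fit, Robo3 passed as lower in NIP in 2 line comparisons. The other 66 genes include Robo3 and are the tested members below.

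**Figure D1:**
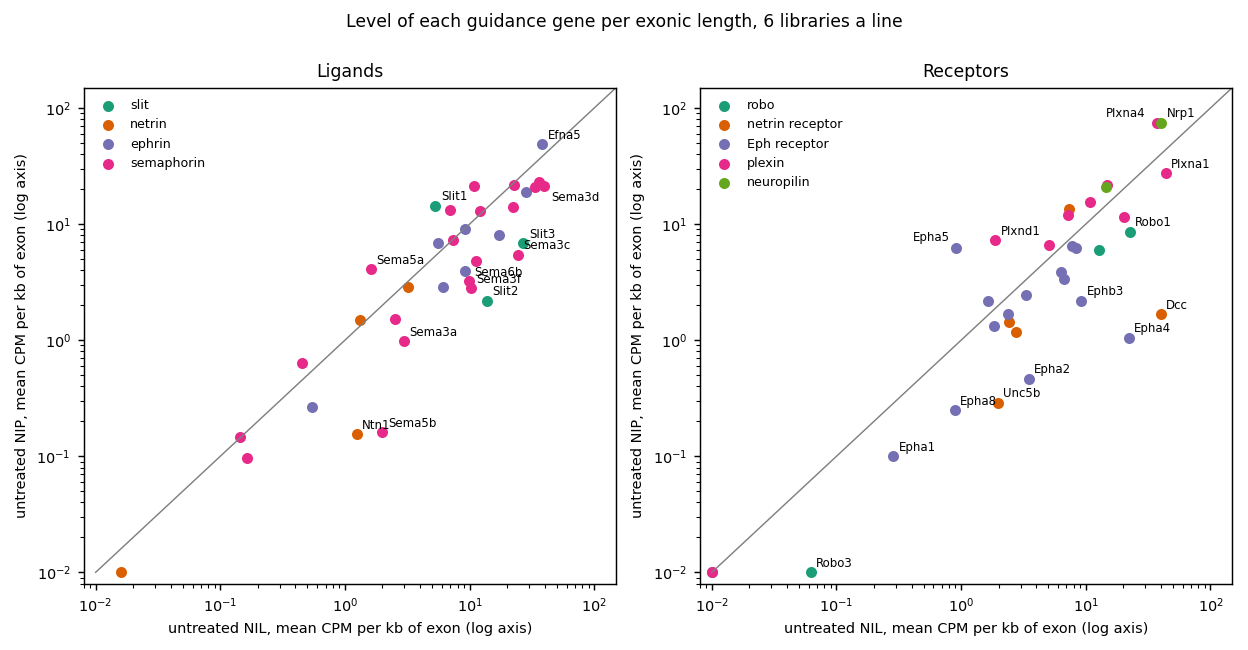
Mean level per kilobase of exon (CPM per kb, log axes) of the 69 guidance genes in untreated NIP (vertical axis) and untreated NIL (horizontal axis) neurons, over 6 libraries a line, ligands on the left and receptors on the right, with colour for the family. Values under 0.01 are drawn at 0.01. Points under the diagonal are lower in NIP; Dcc and Epha4 lie farthest below it among the abundant receptors, and Plxna4 and Nrp1 lie at the top.

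The first question was whether the lines differ in their guidance genes. They did, mostly through lower levels in NIP. Netrin receptor Dcc, Eph receptor Epha4, the semaphorins Sema3f, Sema5b, Sema6b and Sema7a, Slit2, Slit3 and Robo1 were lower in NIP in all 5 comparisons of the lines, and Epha5, Slit1 and Sema4d were higher in all 5. These comparisons share no library, though they share the replicate sets. The shares of all tested genes that passed in all 5 were 1.76% lower and 3.43% higher. In total 25 members passed as lower in NIP in at least 1 comparison and 13 as higher, with none in both directions, while 28 passed in none (42.4%). Of all tested genes 9.58% passed as lower in at least 1 comparison, 14.8% as higher and 75.6% in none. With the replicate block 41 members passed as lower, 16 as higher and 9 in none (13.6%), against 25.2%, 27.7% and 47.5% of all genes.

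At 0 h, 4 members were higher and 18 lower in NIP of the 66 tested (33.3%), where 12.5% of all 14792 tested genes passed. Untreated at 12 h the count was 6 higher and 13 lower, against 12.0% of all genes, and untreated at 36 h it was 6 higher and 14 lower, against 11.6%. With CPA it was 5 higher and 15 lower at 12 h, against 10.2% of all genes, and 12 higher and 15 lower at 36 h, against 16.9%. In the same order, 6.06%, 9.09%, 9.09%, 7.58% and 18.2% of members were higher, against 7.86%, 7.68%, 7%, 6.77% and 10.4% of all genes. The share higher was thus near that of all genes except with CPA at 36 h. Members lower were 27.3%, 19.7%, 21.2%, 22.7% and 22.7%, against 4.61%, 4.28%, 4.56%, 3.39% and 6.56% of all genes. With the replicate number as a block the counts were 10 higher and 31 lower, 12 and 30, 12 and 27, 11 and 29, and 16 and 31 in the same order, against 26.3%, 27.9%, 28.8%, 26.7% and 37.5% of all genes. The median log2 difference of the members, NIP minus NIL, was -0.64, -0.71, -0.49, -0.56 and -0.59, where the median of all genes lay between -0.01 and 0.04. By role, at 0 h 2 ligands were higher and 10 lower of 34, and 2 receptors higher and 8 lower of 32. With CPA at 36 h, 8 receptors passed as higher and 8 as lower, and 4 ligands as higher and 7 as lower. These counts lean on single libraries, and of the 108 member calls in the 5 comparisons 58 were lost without some 1 library. Each run without 1 library leaves 1 library in a group. Fewer members passed in these runs than with all libraries, and fewer of all genes too. The exception was the run without CPA-treated NIP 36 h replicate 2, where more members and more of all genes passed. With CPA at 36 h, most of the 12 higher members were lost without NIL replicate 2, a library rich in Rn45s. When only the groups compared were fitted, 2 higher and 4 lower members passed there, against 1.87% of all genes.

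**Figure D2:**
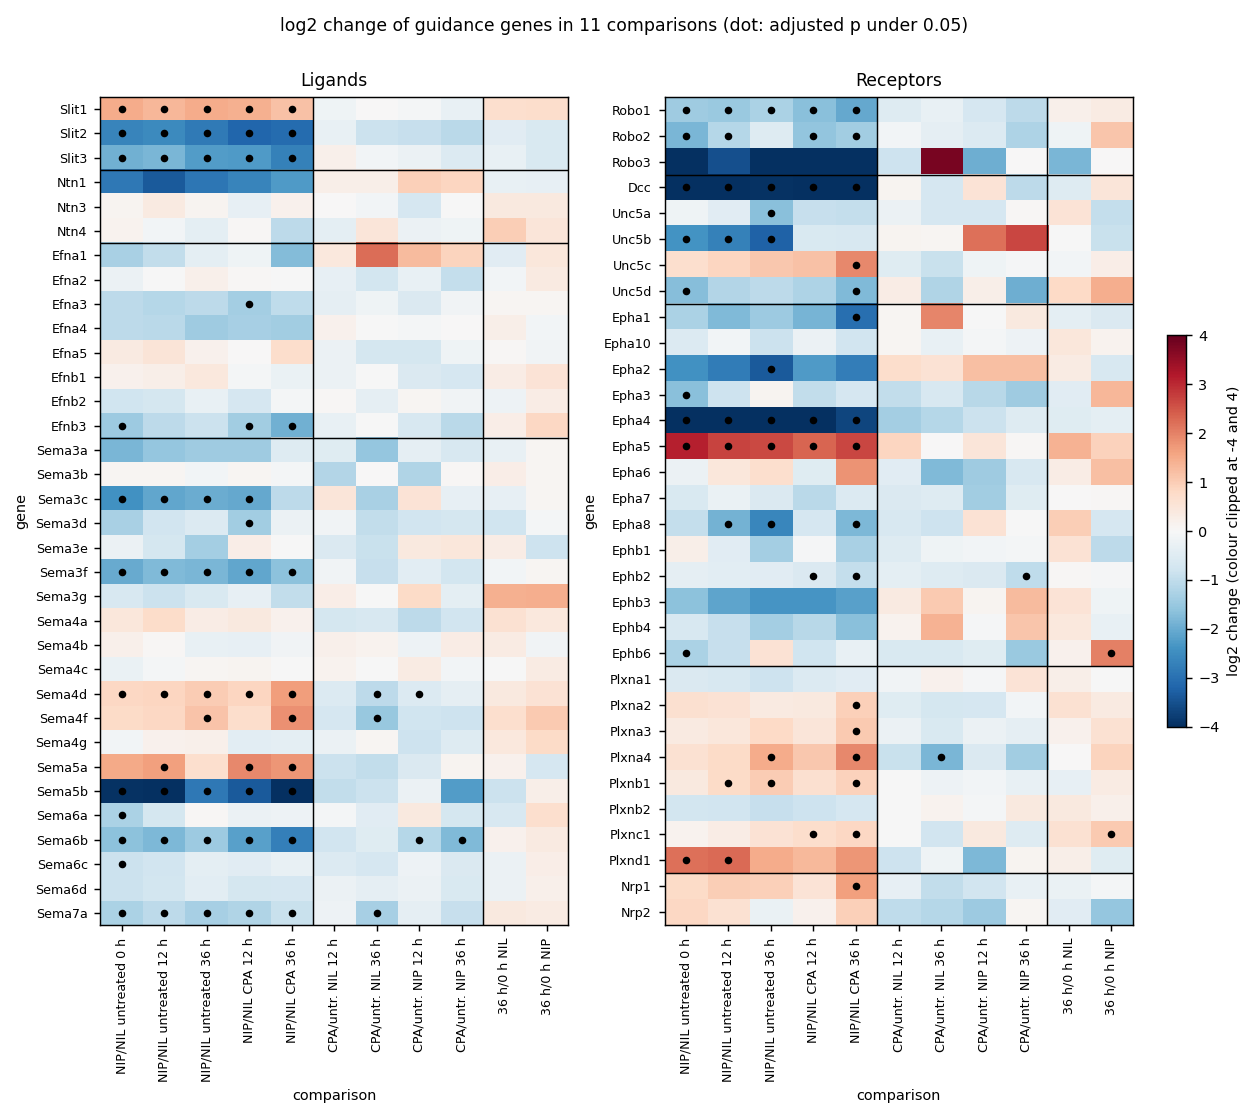
Log2 change of each of the 66 tested guidance genes (rows, by family) in 11 comparisons (columns): NIP over NIL in 5 conditions, CPA over untreated in 4 and 36 h over 0 h in 2; red is higher in the first-named group, and dots mark an adjusted p under 0.05. Epha4, Dcc, Sema5b, Slit2 and Slit3 form blue rows across the 5 line columns and Epha5 and Slit1 red ones, while the CPA columns are mostly pale blue; Robo3 rests on 77 reads.

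Promoter sequence is shown for 3 members that head the line and CPA lists and have a window in RefSeq (GRCm38.p6; 59 of the 69 genes matched), as context for where their transcription starts. Each window holds the 250 bases before and 50 bases after a transcription start, 5′ to 3′ on the gene's own strand. Epha4 lies on the minus strand at chr1:77515039-77515338, Sema5b on the plus strand at chr16:35541112-35541411 and Ephb2 on the minus strand at chr4:136835963-136836262. Capitals mark CCACG or its reverse complement, a part of the element known from genes that Atf6 and Xbp1 switch on in ER stress. The rest of that element was not searched for.
Epha4: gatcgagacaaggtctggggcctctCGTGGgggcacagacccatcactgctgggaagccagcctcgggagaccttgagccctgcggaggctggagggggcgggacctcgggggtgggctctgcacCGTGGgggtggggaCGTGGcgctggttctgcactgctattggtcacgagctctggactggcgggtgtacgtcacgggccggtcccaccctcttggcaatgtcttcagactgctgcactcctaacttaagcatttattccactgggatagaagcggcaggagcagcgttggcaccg
Sema5b: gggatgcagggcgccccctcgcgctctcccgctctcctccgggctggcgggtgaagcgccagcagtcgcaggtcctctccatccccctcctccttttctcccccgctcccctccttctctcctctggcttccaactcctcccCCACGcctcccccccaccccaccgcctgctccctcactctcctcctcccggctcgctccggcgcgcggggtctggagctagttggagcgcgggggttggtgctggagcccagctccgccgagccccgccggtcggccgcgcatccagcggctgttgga
Ephb2: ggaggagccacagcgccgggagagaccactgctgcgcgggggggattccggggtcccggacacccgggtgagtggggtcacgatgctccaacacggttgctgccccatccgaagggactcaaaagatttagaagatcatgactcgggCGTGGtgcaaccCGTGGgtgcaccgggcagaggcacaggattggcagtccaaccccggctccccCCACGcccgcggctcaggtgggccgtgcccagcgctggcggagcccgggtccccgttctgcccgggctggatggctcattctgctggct
The windows hold 64%, 73% and 68.7% G and C. CCACG was found 3 times for Epha4, 1 time for Sema5b and 3 times for Ephb2, and on either strand it is in 32.8% of all 32851 mouse windows and in 30 of the 59 guidance genes with a window (50.8%). The E-box CANNTG, the site type of Neurog2 and its relatives, has 1 match for Ephb2 and 0 for Epha4 and Sema5b, while 72.3% of all windows and 29 of 59 members (49.2%) hold it. None of the 3 windows held CAGATG (17.2% of all windows, 4 of 59 members), which is a form of CANNTG, the homeodomain core TAATTA (5.29%, 3 of 59), the Atf4 element TGATGNAA (3.97%, 0 of 59) or TGACGTCA (1.79%, 1 of 59). These matches describe letters, not binding.

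In the slit system, Slit2, Slit3 and Robo1 were lower in NIP and Slit1 was higher. Slit2 (chromosome 5, 47983138 to 48307733, GRCm38) had 75.1 and 51.4 CPM in NIP libraries at 0 h, 76.1 and 48.6 untreated at 12 h and 48.3 and 34.7 untreated at 36 h, against 512 and 282, 499.5 and 227, and 387 and 197 CPM in NIL libraries. No NIP library reached a NIL library. The log2 difference was -2.65 ± 0.55 at 0 h (SE, edgeR adjusted p = 0.00564), -2.54 ± 0.55 at 12 h (adjusted p = 0.00746) and -2.82 ± 0.56 at 36 h (adjusted p = 0.00468). After CPA Slit2 averaged 33.1 ± 9.73 CPM in NIP and 295 ± 82.9 CPM in NIL at 12 h (SD, n = 2 each) and differed by -3.16 ± 0.56.

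Slit3 (chromosome 11, 35121224 to 35708507) moved the same way, with 57.4 and 36.9 CPM in NIP and 196 and 162 CPM in NIL libraries at 0 h, 65.2 and 28.2 in NIP and 219.7 and 112 in NIL at 12 h, and 34.8 and 27.8 in NIP and 169.9 and 124 in NIL at 36 h, all untreated. Its differences were -1.92 ± 0.48, -1.83 ± 0.48 and -2.24 ± 0.49 (adjusted p = 0.0174, 0.0228 and 0.00859). Slit1 went the other way in every comparison: 71.2 ± 1.76 CPM in NIP and 25.5 ± 9.99 CPM in NIL at 0 h, and 115 ± 8.002 CPM in NIP and 40.8 ± 5.53 CPM in NIL untreated at 36 h (SD, n = 2 each). The log2 differences of Slit1 were 1.49 ± 0.24 at 0 h (adjusted p = 0.00104) and 1.495 ± 0.24 at 36 h (adjusted p = 0.0011). Slit2 lost its call without NIL replicate 1 or NIP replicate 2 at 0 h and at 12 h and without NIP replicate 2 at 36 h. Slit3 lost its call at 0 h and at 36 h without NIL replicate 1 or either NIP replicate, and at 12 h without NIL replicate 1 or NIP replicate 2.

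Robo1 had the highest mean level per length of the Robo genes in both lines. In untreated NIP its range overlapped that of Robo2 (6.84 to 10.2 and 3.54 to 9.46 CPM per kb). At 0 h Robo1 had 113 and 147 CPM in NIP and 367 and 329.9 CPM in NIL libraries. Untreated at 36 h Robo1 had 169 and 159 CPM in NIP and 409.6 and 384 CPM in NIL libraries. The groups did not overlap, and the differences were -1.42 ± 0.36 (adjusted p = 0.0181) and -1.28 ± 0.36 (adjusted p = 0.0324). Robo2 was lower in NIP at 0 h, at 63.8 ± 5.22 CPM against 226 ± 29.3 CPM in NIL (log2 difference -1.82 ± 0.32, adjusted p = 0.00186). Robo2 also passed as lower untreated at 12 h (-1.14) and with CPA at 12 h and 36 h (-1.56 and -1.40). Each of these later calls was lost under some alternative run. Untreated at 36 h, Robo2 averaged 139 ± 30.2 CPM in NIP and 201 ± 31.3 CPM in NIL and did not pass (-0.53 ± 0.31, edgeR adjusted p = 0.305). The call of Robo1 was lost at 0 h and 12 h without NIL replicate 1 or either NIP replicate, and at 36 h without any 1 of the 4 libraries.

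In the netrin system all 5 receptors passed between the lines in some comparison. In NIP 4 were lower (80%, against 9.58% of all genes) and Unc5c was higher (20%, against 14.8%). Dcc (chromosome 18, 71253634 to 72351069), the attractive netrin receptor, was among the most abundant guidance genes of NIL and far lower in NIP. It had 20.9 and 18.1 CPM in NIP libraries at 0 h, 25.1 and 12.0 untreated at 12 h and 34.4 and 21.1 untreated at 36 h, against 744 and 454, 744 and 372, and 564 and 282 CPM in NIL libraries. Every NIP library was below every NIL library. The log2 differences were -4.94 ± 0.58, -4.91 ± 0.58 and -3.94 ± 0.55 (SE, edgeR adjusted p = 8.66e-05, 8.83e-05 and 0.000402), and with CPA -4.46 ± 0.56 at 12 h and -4.32 ± 0.56 at 36 h. The call of Dcc held in all 5 comparisons under each of the 11 alternatives run.

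Unc5b (chromosome 10, 60762593 to 60831581), a repulsive netrin receptor, had 2.23 and 2.71 CPM in NIP and 7.68 and 18.2 CPM in NIL libraries at 0 h, and 0.953 and 1.61 CPM in NIP and 6.41 and 19.3 CPM in NIL libraries untreated at 36 h. The untreated differences were -2.39 ± 0.69, -2.70 ± 0.69 and -3.24 ± 0.73 at 0 h, 12 h and 36 h (adjusted p = 0.037, 0.0211 and 0.0106), and each was lost when either NIP replicate or NIL replicate 2 was left out. With CPA the line difference of Unc5b was -0.60 ± 0.64 and -0.63 ± 0.64 at 12 h and 36 h (adjusted p = 0.624 and 0.526). Unc5c averaged 281 ± 4.19 CPM in NIP and 133 ± 22.7 CPM in NIL untreated at 36 h (1.08 ± 0.38, adjusted p = 0.085), and it passed as higher in NIP with CPA at 36 h (1.91 ± 0.39, adjusted p = 0.00445). That call was lost without NIL replicate 2. With the block Unc5c passed in all 5 comparisons. Unc5d was lower in NIP at 0 h (-1.69) and with CPA at 36 h (-1.76), and Unc5a untreated at 36 h (-1.67). Among the netrins themselves none of the 3 tested passed without the block; with it Ntn1 passed as lower in NIP in all 5 comparisons. Ntn1, the netrin of the floor plate, had 0.651 and 1.99 CPM in NIP and 6.73 and 11.7 CPM in NIL libraries at 0 h (-2.85 ± 1.01, adjusted p = 0.0889, and 0.00128 with the block).

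**Figure D3:**
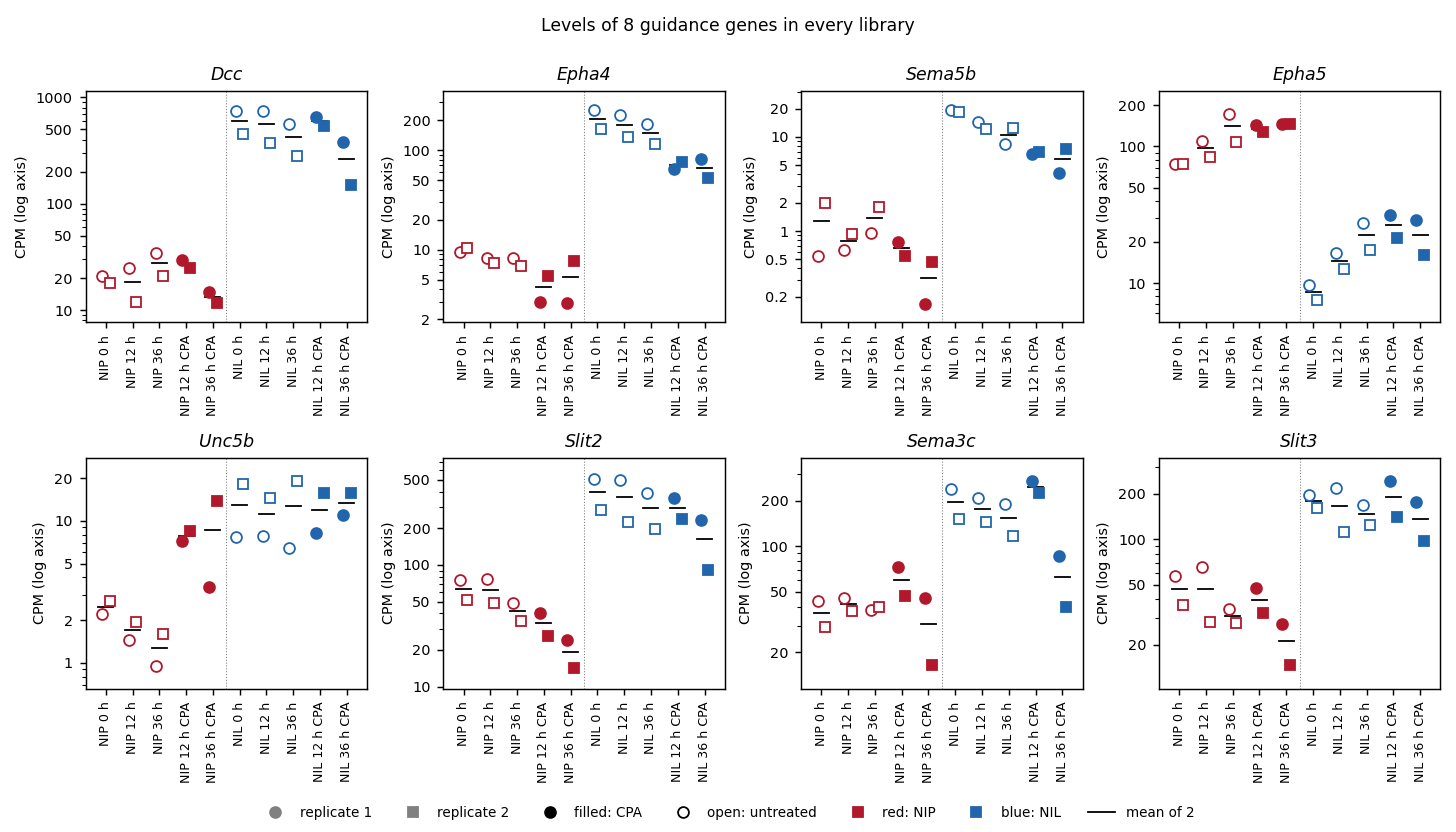
CPM (log axis) of 8 guidance genes in each of the 20 libraries, NIP groups left of NIL groups in each panel, circles for replicate 1 and squares for replicate 2, filled with CPA and open without, and bars for the mean of 2. Dcc and Epha4 in NIP lie far below every NIL library, Epha5 far above, and Unc5b in NIP is near the NIL levels after CPA.

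Among the Eph receptors, Epha4 and Epha5 moved in opposite directions. Epha4 (chromosome 1, 77367185 to 77515088, promoter shown above) had 9.44 and 10.5 CPM in NIP libraries at 0 h, 8.25 and 7.34 at 12 h and 8.34 and 6.88 at 36 h, against 249 and 162, 222 and 134, and 181 and 115 CPM in NIL libraries, all untreated. Every NIL library held more than every NIP library. The differences were -4.37 ± 0.47, -4.51 ± 0.47 and -4.29 ± 0.47 (SE, edgeR adjusted p = 4.67e-05, 3.63e-05 and 7.49e-05). Epha5 (chromosome 5, 84054761 to 84417382), like Epha4 a receptor for A-class ephrins, had 74.9 and 73.9 CPM in NIP libraries at 0 h, 110.3 and 83.5 at 12 h and 174 and 108 at 36 h, against 9.72 and 7.54, 16.5 and 12.8, and 27.5 and 17.4 CPM in NIL libraries. The lines did not overlap, with differences of 3.10 ± 0.34, 2.72 ± 0.34 and 2.64 ± 0.33 (adjusted p = 5.7e-05, 0.000131 and 0.000198). With CPA the differences were -4.04 and -3.67 for Epha4 and 2.33 and 2.68 for Epha5 at 12 h and 36 h. The calls of both genes held under each of the 11 alternatives run.

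Of the 14 Eph receptors, 1 passed as higher in NIP in some line comparison (Epha5, 7.14%, against 14.8% of all genes), 7 as lower (50%, against 9.58%) and 6 in none. With the block 2 passed as higher (Epha5 and Epha6, 14.3%, against 27.7%), 12 as lower (85.7%, against 25.2%) and 0 in none. Ephb3 and Ephb4 were then lower in 4 comparisons each and Epha7 in 3. Epha8 was low in both lines and lower in NIP, at 0.945 ± 0.156 CPM against 5.91 ± 0.582 CPM in NIL untreated at 36 h (SD, n = 2 each; -2.61 ± 0.35, adjusted p = 0.000319). Epha8 also passed as lower untreated at 12 h (-1.90) and with CPA at 36 h (-1.80), calls lost with only the groups compared. Epha3 (-1.68) and Ephb6 (-1.27) passed as lower at 0 h, and Epha2 untreated at 36 h (-3.38). Epha1 passed as lower with CPA at 36 h (-3.01), and Ephb2 with CPA at 12 h and 36 h (-0.59 and -0.95). The exons of Epha1 overlap those of Zyx, and without a known strand setting their reads cannot be told apart. Of the ephrins, 2 of 8 passed in some comparison, both lower in NIP, and 75% passed in none, against 75.6% of all genes. The transmembrane Efnb3 passed at 0 h (-1.45) and with CPA at 12 h and 36 h (-1.38 and -1.93), and Efna3 with CPA at 12 h (-1.35). With the block 5 ephrins passed as lower (62.5%, against 25.2% of all genes), 1 as higher and 2 in none. Efna3, Efna4 and Efnb3 were then lower in all 5 comparisons and Efnb2 in 3. Efna5, the most abundant ephrin, differed by 0.35 at 0 h and did not pass between the lines, although with the block it passed as higher in NIP untreated at 12 h (0.53) and with CPA at 36 h (0.68).

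Of the 20 semaphorins, 8 passed as lower in NIP in some comparison (40%, against 9.58% of all genes), 3 as higher (15%, against 14.8%) and 9 in none. The share of semaphorins passing as higher was thus near that of all genes. Of the 8 tested plexins, 0 passed as lower and 6 as higher (75%). With the block 11 semaphorins were lower (55%, against 25.2% of all genes) and 3 higher (15%, against 27.7%). For the plexins, 2 were then lower (25%, Plxnb2 in all 5 comparisons and Plxna1 in 3) and 6 higher (75%). The difference between semaphorins and plexins was not tested. Sema5b (chromosome 16, 35541145 to 35664732, promoter above), a transmembrane semaphorin, had 0.543 and 1.99 CPM in NIP libraries at 0 h, 0.624 and 0.929 at 12 h and 0.953 and 1.79 at 36 h, against 19.4 and 18.2, 14.3 and 12.2, and 8.43 and 12.4 CPM in NIL libraries, all untreated. Every NIP library was below every NIL library. The differences of Sema5b were -3.96 ± 0.56, -4.10 ± 0.55 and -2.85 ± 0.53 (SE, edgeR adjusted p = 0.000347, 0.000258 and 0.00325). Its relative Sema5a differed in the other direction, with 90.5 ± 16.5 CPM in NIP libraries and 28.5 ± 13.0 CPM in NIL libraries untreated at 12 h (1.66 ± 0.49, edgeR adjusted p = 0.042). That call was lost without any 1 of the 4 libraries. Sema5a also passed as higher in NIP with CPA at 12 h and 36 h (1.92 and 1.78), and each of these calls was lost without some 1 library.

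Of the secreted class 3 semaphorins, Sema3c (chromosome 5, 17574281 to 17730268) had 43.6 and 29.5 CPM in NIP libraries at 0 h, 45.5 and 37.5 at 12 h and 38.1 and 39.6 at 36 h, against 238 and 152, 208 and 144, and 192 and 117 CPM in NIL libraries. The untreated groups did not overlap at any time. Differences of Sema3c were -2.41 ± 0.48, -2.09 ± 0.47 and -1.99 ± 0.47 (adjusted p = 0.00409, 0.00999 and 0.014), and with CPA at 36 h it differed by -1.03 ± 0.46 (adjusted p = 0.139). Without NIP replicate 2 the untreated call of Sema3c was lost at each time, and at 12 h and 36 h also without NIL replicate 1 or NIP replicate 1. Sema3f, the ligand that prefers Nrp2, averaged 14.3 ± 0.326 CPM in NIP and 57.7 ± 4.89 CPM in NIL at 0 h (-2.01 ± 0.29, adjusted p = 0.000391) and was lower in all 5 comparisons. With CPA at 12 h, Sema3c (-2.04) and Sema3d (-1.39) passed as lower, and each call was lost without some 1 library. Sema3a, the ligand of Nrp1, differed by -1.82 at 0 h without passing.

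Transmembrane and membrane-linked semaphorins went both ways. At 0 h, Sema6b averaged 11.9 ± 5.32 CPM in NIP libraries, against 36.5 ± 3.22 CPM in NIL libraries (-1.63 ± 0.29, adjusted p = 0.00183), and Sema7a, held by a GPI anchor, 14.6 ± 1.52 CPM for NIP libraries, against 34.95 ± 7.51 CPM for NIL libraries (-1.26 ± 0.28, adjusted p = 0.00829). Sema6a (-1.27) and Sema6c (-0.87) passed at 0 h. Sema4d, the ligand of Plxnb1, was higher in NIP throughout, with 83.2 ± 6.72 CPM in NIP libraries, against 46.9 ± 2.37 CPM in NIL libraries, at 0 h (0.83 ± 0.15, adjusted p = 0.00199). Its receptor Plxnb1 was higher too, untreated at 12 h and 36 h (0.76 and 1.03) and with CPA at 36 h (0.93). Sema4f was higher untreated at 36 h (1.15) and with CPA at 36 h (1.83).

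Plxnd1, the receptor of Sema3e, averaged 58.4 ± 20.95 CPM in NIP and 13.0 ± 7.08 CPM in NIL at 0 h (2.19 ± 0.64, adjusted p = 0.0402) and passed at 0 h and untreated at 12 h; without any 1 of the 4 libraries the call at 0 h was lost, and that at 12 h without NIL replicate 1 or either NIP replicate. Plxna4 averaged 1469 ± 89.99 CPM in NIP and 521 ± 126 CPM in NIL untreated at 36 h (1.496 ± 0.39, adjusted p = 0.0231), a call lost without any 1 of the 4 libraries. After 36 h of CPA, Plxna2 (0.96), Plxna3 (1.04), Plxna4 (1.93), Plxnb1 (0.93) and Plxnc1 (0.82) passed as higher in NIP. Nrp1 joined them at 1.64 ± 0.37 (adjusted p = 0.00772), with 697 and 425 CPM in NIP and 234 and 125 CPM in NIL libraries. The calls of these 5 plexins and of Nrp1 at 36 h of CPA were all lost without NIL replicate 2, without both libraries rich in Rn45s and with only the groups compared; leaving out NIP replicate 1 also ended those of Plxnc1 and Nrp1, and leaving out NIP replicate 2 those of Plxna2 and Plxna3. Plxnc1 also passed as higher with CPA at 12 h (0.70), a call lost without any 1 of the 4 libraries. Plxna1 and Plxnb2 differed by -0.57 and -0.74 at 0 h without passing in any line comparison, and with the block both passed as lower at 0 h.

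The second question was what CPA does to these genes. Few passed, and the members that passed without the block were all lower with CPA. In NIL, 0 of 66 members passed at 12 h, where 2.21% of all tested genes did. Without adjustment 10 members had p under 0.05 there (15.2%, against 13.6% of all genes). DESeq2 called 2, against 5.12% of all genes. With the replicate block 1 was higher and 3 were lower (6.06%, against 7.94%). These shares were near or below those of all genes. In NIL at 36 h, 0 were higher and 4 lower, against 0.980% of all genes, and with the block 4 were higher and 20 lower, against 18.2%. In NIP, 2 were lower at 12 h, against 4.71% of all genes, and 2 at 36 h, against 2.33%; with the block 1 was higher and 16 lower at 12 h and 1 higher and 18 lower at 36 h, against 14.1% and 10.3%. Without the block the member shares were 6.06% in NIL at 36 h and 3.03% in NIP at each time, near the background in NIP. With the block 25.8% of members passed in NIP at 12 h.

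The median log2 change of the members with CPA was -0.24 in NIL at 12 h, -0.47 in NIL at 36 h, -0.26 in NIP at 12 h and -0.32 in NIP at 36 h, where the median of all genes lay between -0.04 and 0.03. The 4 comparisons share no library. In all 4 of them 32 of the 66 members had a negative change (48.5%), as did 22.3% of all genes, and 6 members had a positive change in all 4. By role, 17 of 34 ligands and 15 of 32 receptors were negative in all 4, and by family 11 of 20 semaphorins and 7 of 14 Eph receptors. Motor neuron markers as a list also had negative changes, 18 of 19 in NIL at 12 h, 17 of 19 in NIL at 36 h and 15 of 19 in NIP at each time. Their summed level was 2589 to 7812 CPM in the 8 CPA libraries and 6153 to 11576 CPM in the 12 untreated ones. At 36 h all 16 endoderm and endothelium markers had positive fitted changes with CPA in both lines and none passed, but in NIP the replicate sets went opposite ways: their sum was 525.5 CPM with CPA and 795.4 CPM untreated in set 1, and 9465 CPM with CPA and 4120.4 CPM untreated in set 2. The part of these shifts in the guidance genes was not tested.

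Sema6b (chromosome 17, 56123085 to 56140343), a transmembrane semaphorin that signals through class A plexins, passed as lower with CPA in NIP at both times. In NIP it had 4.32 and 5.79 CPM with CPA and 9.76 and 12.6 CPM untreated at 12 h, and 3.60 and 5.39 CPM with CPA and 14.1 and 16.1 CPM untreated at 36 h. CPA and untreated libraries did not overlap. The changes were -1.14 ± 0.29 at 12 h (SE, edgeR adjusted p = 0.0391) and -1.76 ± 0.30 at 36 h (adjusted p = 0.00725). In NIL, Sema6b had 22.9 and 22.6 CPM with CPA and 36.1 and 41.3 CPM untreated at 12 h (-0.77 ± 0.28, adjusted p = 0.213, and 0.0323 with the block).

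Ephb2 (chromosome 4, 136647539 to 136835988, promoter above), a receptor for B-class ephrins, had 32.5 and 46.3 CPM with CPA and 75.8 and 83.7 CPM untreated in NIP at 36 h, a change of -1.02 ± 0.17 (edgeR adjusted p = 0.00643). The CPA libraries were both below the untreated ones. In the other 3 comparisons the fitted change of Ephb2 was -0.40 to -0.57 and did not pass, although with the block it passed in NIL at 36 h (adjusted p = 0.033) and in NIP at 12 h (adjusted p = 0.0222), with 79.2 and 73.1 CPM with CPA and 103 and 116 CPM untreated in NIL at 36 h.

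Sema4d (chromosome 13, 51685529 to 51793747) had 28.3 and 31.2 CPM with CPA and 56.5 and 66.5 CPM untreated in NIL at 36 h (-1.05 ± 0.15, edgeR adjusted p = 0.012), and 62.0 and 68.9 CPM with CPA and 99.97 and 91.3 CPM untreated in NIP at 12 h (-0.55 ± 0.15, adjusted p = 0.0483). In NIL at 12 h the change was -0.55 ± 0.15 (adjusted p = 0.0781), so the same size fell on either side of the threshold. Also in NIL at 36 h, Sema4f had 32.7 and 17.1 CPM with CPA and 84.3 and 59.6 CPM untreated (-1.52 ± 0.30, adjusted p = 0.0435). With the block Sema4f passed as lower in all 4 CPA comparisons: in NIP it had 59.3 and 56.7 CPM with CPA and 119 and 83.4 CPM untreated at 12 h, and 89.8 and 89.04 CPM with CPA and 170.4 and 149 CPM untreated at 36 h (block adjusted p = 0.00801 and 0.00769, without the block 0.163 and 0.2). In NIL at 36 h, Sema7a had 23.4 and 12.8 CPM with CPA and 51.5 and 40.5 CPM untreated (-1.33 ± 0.28, adjusted p = 0.0474). Plxna4 had 196 and 98.3 CPM with CPA and 610.1 and 432 CPM untreated (-1.82 ± 0.39, adjusted p = 0.0496). Replicate 2 of CPA-treated NIL at 36 h, a library rich in Rn45s, was the lower of its pair for Sema4f, Sema7a and Plxna4 and the higher for Sema4d. In NIP at 36 h Plxna4 had 565 and 558 CPM with CPA and 1406 and 1533 CPM untreated, a change of -1.39 ± 0.39 that did not pass (adjusted p = 0.0886, and 0.00622 with the block).

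These calls were fragile. In NIL at 36 h every call was lost without untreated replicate 1, untreated replicate 2 or CPA replicate 2, and held without CPA replicate 1. In NIP at 12 h every call was lost without any 1 of its 4 libraries. In NIP at 36 h every call was lost without either untreated replicate or without CPA replicate 1, and held without CPA replicate 2. Every call at 36 h was also lost with both libraries rich in Rn45s left out. These are untreated NIP 36 h replicate 1 and CPA NIL 36 h replicate 2. Each run that lost these calls leaves 1 library in a group, and fewer of all genes passed in it too. The losses are thus not particular to the guidance genes.

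**Figure D4:**
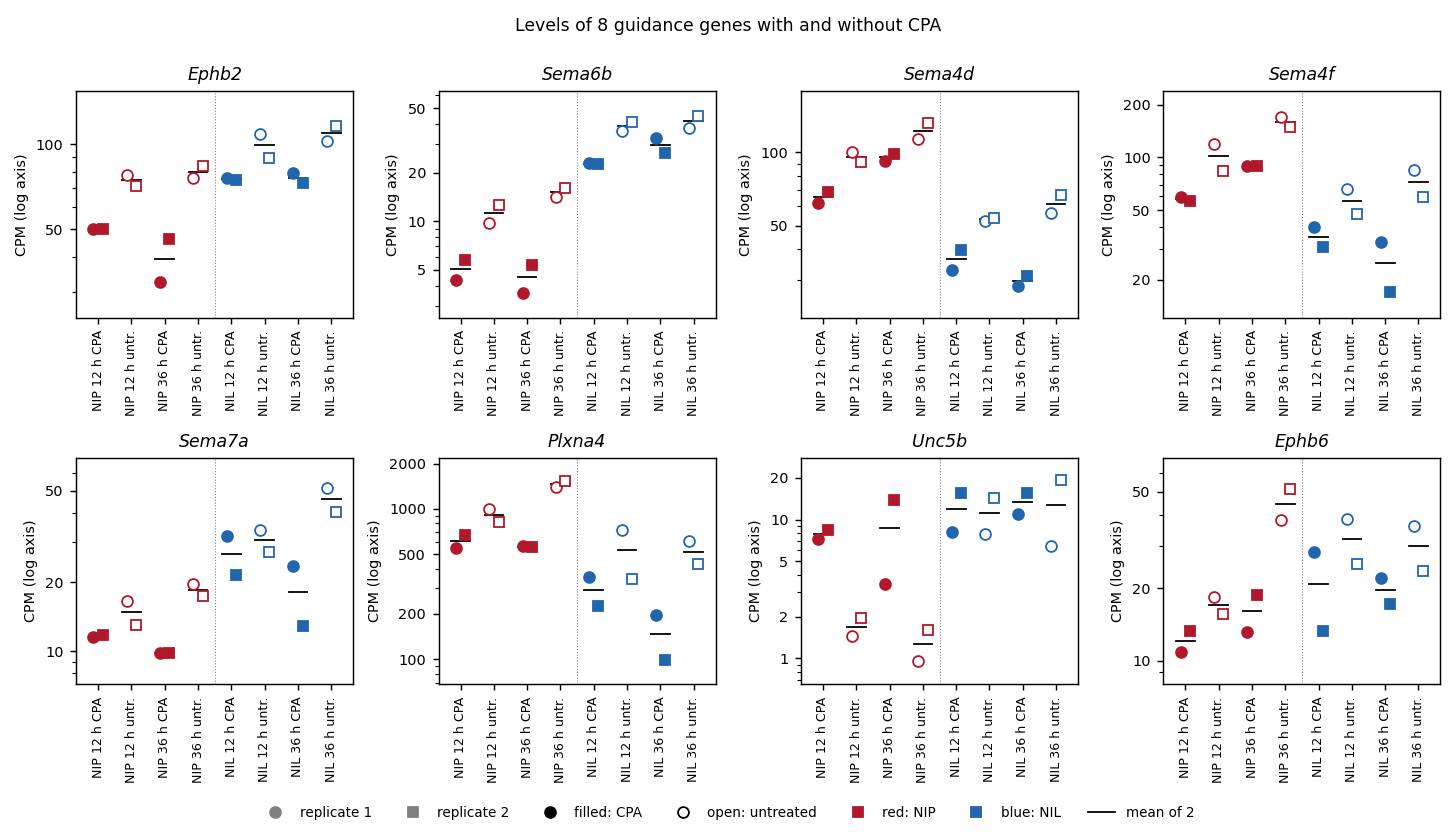
CPM (log axis) of 8 guidance genes with CPA (filled) and untreated (open) at 12 h and 36 h, NIP groups left and NIL groups right in each panel, circles for replicate 1, squares for replicate 2 and bars for the mean of 2. The first 6 panels are the members that passed in some CPA comparison; in the Unc5b panel the filled NIP points lie above the open ones, and Ephb6 a high untreated NIP level at 36 h.

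The largest positive change of a member with CPA in NIP was that of Unc5b, which did not pass. Unc5b had 7.25 and 8.43 CPM with CPA and 1.45 and 1.95 CPM untreated in NIP at 12 h, and 3.43 and 13.9 CPM with CPA and 0.953 and 1.61 CPM untreated at 36 h. The CPA libraries were above the untreated ones at both times. The changes were 2.21 ± 0.68 (edgeR adjusted p = 0.0903, and 0.000804 with the block) and 2.68 ± 0.72 (adjusted p = 0.0775, and 0.000956 with the block). In NIL, Unc5b had 8.18 and 15.6 CPM with CPA and 7.88 and 14.4 CPM untreated at 12 h, a change of 0.11 ± 0.64, and 0.07 ± 0.64 at 36 h. The difference between the lines in this response was 2.104 ± 0.92 at 12 h and 2.61 ± 0.96 at 36 h (adjusted p = 1.00 and 0.909, and 0.173 and 0.105 with the block), so it was not called. Unc5b was singled out after its values were seen.

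No member's CPA response differed between the lines at the threshold. At 12 h 0 of 66 passed, where 0% of all genes did. Unadjusted p by edgeR was under 0.05 for 2 members (3.03%, against 2.36% of all genes). DESeq2 called 0, against 0.0343% of all genes. At 36 h 0 passed, again with 0% of all genes. Unadjusted p was under 0.05 for 5 members (7.58%, against 4.4%), and DESeq2 called 0, against 0.149%.

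Over time in untreated culture, 0 of 66 members passed in NIL between 36 h and 0 h, where 0.0270% of all genes did. Unadjusted p was under 0.05 for 9 members (13.6%, against 5.78% of all genes). DESeq2 called 1, against 0.686% of all genes, and 1 passed with the block, against 0.94%. That 1, under the block, was Epha5 (1.37 ± 0.20, edgeR adjusted p = 0.00392), which averaged 22.4 ± 7.11 CPM at 36 h and 8.63 ± 1.54 CPM at 0 h in NIL. In NIP 2 members were higher at 36 h, against 1.29% of all genes, and with the block 11 were higher and 2 lower, against 9.09%. Ephb6, an Eph receptor without kinase activity, had 38.1 and 51.4 CPM at 36 h and 9.82 and 12.4 CPM at 0 h in NIP (2.02 ± 0.39, adjusted p = 0.0241). Plxnc1, the receptor of Sema7a, had 83.1 and 72.2 CPM at 36 h and 38.8 and 37.0 CPM at 0 h (1.03 ± 0.19, adjusted p = 0.0186). The libraries of the 2 times did not overlap for either gene. Both calls were lost when any 1 of the 4 NIP libraries was left out. At 12 h untreated NIP had 18.4 and 15.6 CPM of Ephb6 and 55.6 and 42.1 CPM of Plxnc1, between the 0 h and 36 h levels.

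The untreated change over 36 h differed between the lines for 0 members, where 0% of all genes passed. Unadjusted p was under 0.05 for 8 members (12.1%, against 6.11% of all genes), and DESeq2 called 1, against 0.527%. With the block 1 member passed, against 0.595% of all genes. It was Sema6a, a transmembrane semaphorin, which had 284 and 240.1 CPM at 36 h and 154 and 173 CPM at 0 h in NIP, and 273 and 234 CPM at 36 h and 445 and 340.4 CPM at 0 h in NIL. The lines thus held like levels of Sema6a at 36 h and not at 0 h. The difference of the changes was 1.31 ± 0.34 (edgeR adjusted p = 0.387, and 0.0431 with the block).

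The replicate sets differed for most members. In the fit with the block, 23 of the 66 were higher and 26 lower in set 2 than in set 1, where 49.2% of all genes passed. Apart from Robo3 with its 77 reads, higher in set 2 were, among others, Ephb3 (1.76), Ephb4 (1.54), Epha2 (1.251), Ntn1 (1.20), Epha1 (1.05), Efna1 (1.02) and Unc5b (0.93), and lower were, among others, Nrp2 (-0.95), Sema3a (-0.93), Epha7 (-0.91), Slit2 (-0.80), Dcc (-0.70) and Slit3 (-0.69). Markers of other cells moved with the sets: 11 of 12 pluripotent stem cell markers (median 3.21), 14 of 14 proliferation markers (1.33) and 15 of 16 endoderm and endothelium markers (1.80) were higher in set 2, and 12 of 19 motor neuron markers were lower (median -0.33). Among the 24 members at least 1 log2 unit lower in NIP on average, 8 were higher in set 2 by over 0.5, 6 were lower by over 0.5 and 10 lay between. Epha4 (-0.14), Sema5b (0.37) and Sema3f (0.10) did not pass between the sets. Epha2, Ephb3 and Ntn1 had negative mean line differences (-2.72, -2.13 and -2.79) and positive set differences, the signs that the proliferation and endoderm markers also had, and the part of such cells in their levels was not tested.

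**Figure D5:**
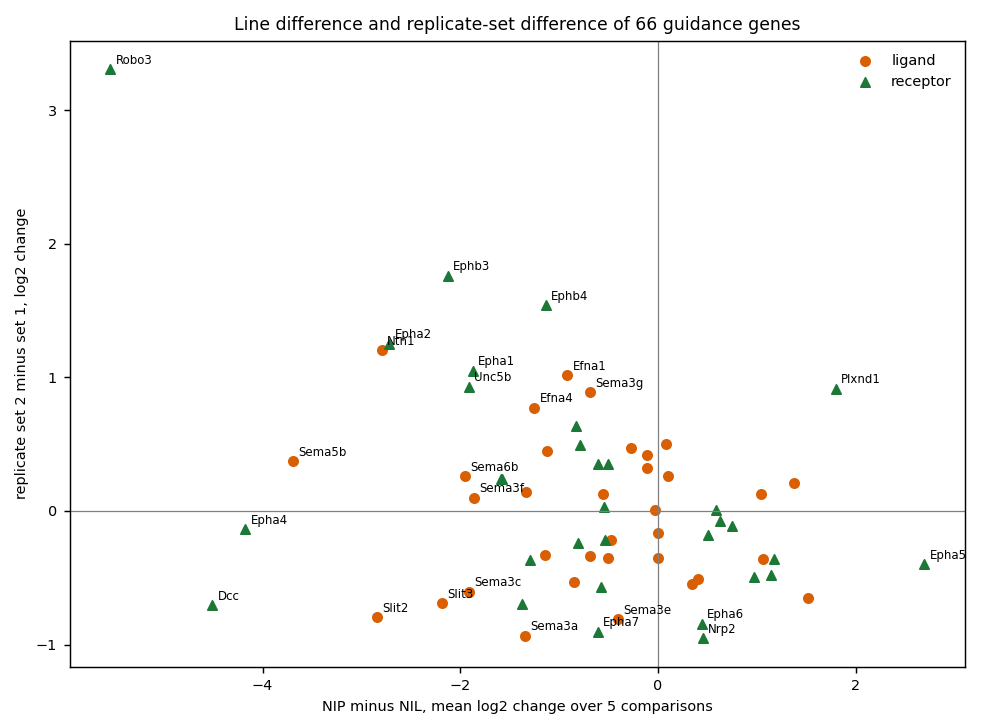
Each of the 66 tested guidance genes by its mean log2 difference between NIP and NIL over 5 comparisons (horizontal axis) and its log2 difference between replicate set 2 and set 1 (vertical axis), circles for ligands and triangles for receptors. Genes low in NIP spread over the whole vertical range, from Robo3 at 3.31 (77 reads) and Ephb3 at 1.76 down to Sema3a at -0.93, with Epha4 near 0.

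Beyond ligands and receptors, a list of 70 other guidance genes (co-receptors, adhesion molecules and signalling proteins of growth cones), of which 69 were tested, showed both directions between the lines. In NIP 7 were higher and 11 lower at 0 h (26.1%, against 12.5% of all genes). Untreated it was 8 and 11 at 12 h (27.5%, against 12.0%) and 11 and 8 at 36 h (27.5%, against 11.6%). With CPA it was 9 and 8 at 12 h (24.6%, against 10.2%) and 16 and 10 at 36 h (37.7%, against 16.9%). With the block 16 were higher and 12 lower at 0 h (40.6%, against 26.3%), and 25 and 14 with CPA at 36 h (56.5%, against 37.5%). Mical1, an enzyme that oxidises actin downstream of plexins, was 2.83 ± 0.27 higher in NIP at 0 h on the log2 scale (edgeR adjusted p = 2.35e-05), and Cntn2, an axonal adhesion molecule, differed by -4.07 ± 0.51 (adjusted p = 0.000149). Rgma, a repulsive ligand of neogenin, differed by -3.01 ± 0.37 untreated at 36 h (adjusted p = 0.000154). With CPA 1, 0, 3 and 4 of these genes passed in NIL at 12 h and 36 h and in NIP at 12 h and 36 h (1.45%, 0%, 4.35% and 5.8%), where 2.21%, 0.980%, 4.71% and 2.33% of all genes did. Cxcr4, the receptor that guides axons towards Cxcl12, fell in NIP at 12 h to 0.240 and 0.587 CPM with CPA, against 9.56 and 4.37 CPM untreated (-4.04 ± 0.59, adjusted p = 0.00201). Rnd1, a small GTPase that binds plexins, was higher with CPA in NIP at 12 h, with 11.9 and 10.9 CPM against 0.756 and 0.836 CPM untreated (3.83 ± 0.40, adjusted p = 0.000173). Over 36 h in untreated NIP, Ablim3 (1.47), Flrt2 (1.64) and Chl1 (1.38) were higher.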

How the data were processed

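RNA was measured in 20 libraries, 2 in each of 10 groups, taken from the titles. Per the labels' protocols, total RNA was treated with DNase and depleted of ribosomal RNA. The authors deposited whole-number read counts per gene symbol, not normalized. Per the submitters' processing notes, TopHat2 2.1.1, Bowtie2 2.3.2, HTSeq 0.6.1p1, Picard and the GRCm38 (mm10) build were used; the strand setting and the annotation release are not given in the sources used here. Without strand, 8 members whose exons overlap another counted gene (Epha1, Epha10, Ephb4, Nrp1, Ntn3, Ntn5, Sema4a and Unc5a) are uncertain. Reads mapped to several places (18.2% to 52.6%), outside genes (7.77% to 18.7%) or ambiguous (0.156% to 0.458%) were left out of library sizes.

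Genes passing edgeR's filterByExpr by group (14792, with 66 members) were fitted in a single quasi-likelihood model (edgeR 4.0.16, R 4.3.3; TMM scaling, robust, 10 residual degrees of freedom), with p-values adjusted by Benjamini and Hochberg over all genes and a threshold of 0.05. The biological coefficient of variation was 27.5%, and 15.7% with the replicate number as a block. CPM use the scaled library sizes; exonic lengths and gene positions come from GENCODE vM21 on GRCm38. Tests were checked on simulated data with independent libraries and no difference between replicate sets. That check does not cover the pairing of the real libraries. Deviations of equal replicate numbers from their group means correlated across genes in all 45 pairs of groups (r 0.243 to 0.763, median 0.467), so the numbers, taken from the titles, pair the libraries; the set comparison uses the fit with the block. Alternatives were the block, DESeq2 1.42.0, RLE scaling, no Rn45s, no filter, only the groups compared, without the 2 libraries rich in Rn45s, and without each replicate. Members, lists and tests were chosen with earlier results of these data known. Named per library were members passing in at least 2 of the 3 untreated line comparisons. Of these the 8 largest whose higher group averaged 5 CPM or more were taken. Members passing with CPA or over time were also named, and up to 4 other guidance genes a comparison by smallest adjusted p. The text names a part of those other guidance genes. Other members are given with log2 changes for all or some of the comparisons in which they passed.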

Additional observations from a re-analysis of the deposited data

Results flagged for a closer look

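For Sema6a, a transmembrane semaphorin, the untreated change over 36 h differed between the lines in the fit with the replicate block. The log2 change from 0 h was 1.295 ± 0.268 (SE) more positive in NIP than in NIL (edgeR adjusted p = 0.0431). In NIP the block fit gave a change of 0.67 ± 0.19 (adjusted p = 0.0366) and in NIL -0.63 ± 0.19 (adjusted p = 0.142). Without the block the difference was 1.314 ± 0.34 with an adjusted p of 0.387.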

How the results depend on the processing

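Counts of members passing moved with the fit. With the replicate block they were 41, 42 and 39 for the untreated lines at 0 h, 12 h and 36 h, 40 and 47 for the lines with CPA at 12 h and 36 h, 4 and 24 for CPA in NIL, 17 and 19 for CPA in NIP, 1 and 13 over time in NIL and NIP, and 1 for the line difference in the untreated change. DESeq2 gave 2 for CPA in NIL at 12 h, 7 and 12 in NIP at 12 h and 36 h, 1 and 6 over time in NIL and NIP, and 1 for the line difference in the untreated change. Of all genes DESeq2 called 5.12%, 7.67%, 4.78%, 0.686%, 4.61% and 0.527% in the same order. For CPA in NIP at 12 h, 1 passed with RLE scaling, without Rn45s, without a filter or without the 2 libraries rich in Rn45s; for CPA in NIL at 36 h, 2 passed without Rn45s. Without those libraries 12 passed between the untreated lines at 36 h, and 0 with CPA at 36 h in NIL, with CPA at 36 h in NIP and over time in NIP. With only the groups compared, 12 passed for the untreated lines at 12 h, 6 for the lines with CPA at 36 h, 0, 6 and 0 for CPA in NIL at 36 h and in NIP at 12 h and 36 h, and 10 over time in NIP. Leaving out 1 replicate gave 13 to 20, 10 to 18 and 10 to 14 for the untreated lines, 10 to 14 and 18 to 32 for the lines with CPA, 0 to 7, 0 to 0 and 0 to 3 for CPA in NIL at 36 h and NIP at 12 h and 36 h, and 0 to 0 over time in NIP. The cause of these shifts was not tested.

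Values with a replicate left out were followed for members that passed a comparison with or without the block. Of these 1156 values most kept direction and call, more calls were lost than gained, and 2 values reversed. Epha7 reversed between the lines with CPA at 36 h (0.027 without NIL replicate 1, the leave-out values running from -1.094). Ephb4 reversed between the untreated lines at 12 h (0.124 without NIL replicate 2, running from -1.644). Each had passed there only with the block. With RLE scaling or without Rn45s, 333 of 337 values kept direction and call and 0 reversed. The block lost 0 calls and added 170 among 288 values.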
